A study of Mus musculus with 8 samples.

Results

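The EGF receptor family and its ligands were followed in mouse kidney tubuloids through 10 genes, the 4 receptor genes *Egfr*, *Erbb2*, *Erbb3* and *Erbb4* and the 6 ligand genes *Areg*, *Ereg*, *Hbegf*, *Tgfa*, *Btc* and *Nrg1*. They were taken by gene symbol from tables that list 24063 genes, and they account for 11 of 33068 listed transcripts because *Egfr* has 2. Counts were summed per gene, and the transcript with the highest mean count gave the level per length. All 10 genes passed the filter on low counts, with between 153 counts (*Tgfa* in control culture 14) and 9772 counts (*Hbegf* in control culture 21) per culture.

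Tubuloids are epithelial structures that grow from kidney tubule fragments between layers of Matrigel, and the experiment asked what a pulse of GDNF, a growth factor of the developing ureteric bud and collecting duct, does to their RNA. Of 8 cultures, 4 received 20 ng/ml GDNF for 24 h (cultures 6, 12, 17 and 22) and 4 received none (cultures 3, 7, 14 and 21), and all were collected on culture day 7, which for the pulsed cultures was 6 days after the pulse. Every culture, control or GDNF, carried the genotype *Pkd2fl/fl Pax8rtTA TetOCre mTmG*, in which Cre depends on doxycycline and is driven through *Pax8* in tubule epithelium. Whether these cultures received doxycycline is not stated in the sources used here. The age of the mice is given as postnatal day 7 to 10 in the labels and as day 4 to 7 in the methods. The medium of both groups held 20 ng/ml human EGF, a protein ligand of Egfr, so this ligand was supplied to every culture. The labels do not say which cultures came from separate animals, and p-values therefore measure the spread between these cultures.

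Ligands of the family are made as membrane-bound precursors, and metalloproteases release them from the cell surface. Egfr binds amphiregulin (*Areg*) and transforming growth factor alpha (*Tgfa*), and it shares heparin-binding EGF-like growth factor (*Hbegf*), betacellulin (*Btc*) and epiregulin (*Ereg*) with Erbb4. Neuregulin 1 (*Nrg1*) binds Erbb3 and Erbb4, Erbb2 has no known soluble ligand and acts as a partner of the other receptors, and Erbb3 has little kinase activity of its own. In kidney the family is known for tubule growth and repair, and Egf itself is made mainly in the distal tubule.

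Among the ligand genes, 3 are neighbours on chromosome 5 of build GRCm38.p6 (the patch of the mm10 genome), where *Ereg* (5:91074617-91093649), *Areg* (5:91139599-91148432) and *Btc* (5:91357261-91402994) lie within 328 kb. *Egfr* (11:16752203-16913907) and *Erbb2* (11:98412484-98437716) share chromosome 11. Of the others, *Erbb3* lies at 10:128567523-128589635, *Erbb4* at 1:68031884-69108576, *Tgfa* at 6:86195038-86275744 and *Nrg1* at 8:31807452-32891609. The 250 bases before the start site are shown for the receptor genes with the highest levels and for the neighbouring ligand genes *Areg* and *Btc*, which had the lowest GDNF estimates of the family. The sequences are RefSeq's for GRCm38.p6, 5′ to 3′ on the strand of the gene, and capitals mark matches to the letters given below on either strand.
Egfr, chr11:16751953-16752202, plus strand: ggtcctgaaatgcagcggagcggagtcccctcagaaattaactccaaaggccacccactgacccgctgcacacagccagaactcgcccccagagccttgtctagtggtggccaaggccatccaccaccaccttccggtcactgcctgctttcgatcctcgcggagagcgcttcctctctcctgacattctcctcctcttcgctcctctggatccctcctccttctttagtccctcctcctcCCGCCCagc
Erbb2, chr11:98412234-98412483, plus strand: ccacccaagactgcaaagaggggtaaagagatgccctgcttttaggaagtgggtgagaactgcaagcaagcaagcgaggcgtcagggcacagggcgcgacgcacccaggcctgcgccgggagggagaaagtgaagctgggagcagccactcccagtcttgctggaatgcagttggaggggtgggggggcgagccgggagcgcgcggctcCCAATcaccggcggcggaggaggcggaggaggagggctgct
Areg, chr5:91139349-91139598, plus strand: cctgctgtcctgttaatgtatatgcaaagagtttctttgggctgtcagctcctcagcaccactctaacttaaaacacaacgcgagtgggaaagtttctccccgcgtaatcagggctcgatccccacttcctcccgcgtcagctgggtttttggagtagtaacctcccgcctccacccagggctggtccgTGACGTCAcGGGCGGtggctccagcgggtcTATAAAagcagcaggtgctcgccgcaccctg
Btc, chr5:91402995-91403244, minus strand: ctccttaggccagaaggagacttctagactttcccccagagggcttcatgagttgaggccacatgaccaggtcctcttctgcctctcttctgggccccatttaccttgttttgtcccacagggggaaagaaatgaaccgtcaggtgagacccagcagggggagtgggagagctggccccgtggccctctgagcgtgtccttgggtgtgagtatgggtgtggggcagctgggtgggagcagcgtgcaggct
The search covered the GC box with the letters GGGCGG, the TATA box read as TATAAA, and the pentamer known as the CCAAT box, each on both strands. It also covered the AP-1 site, for which a stretch of TGA and, after any 1 base, TCA was counted, and the full cAMP response element TGACGTCA. Positions count back from the base before the start site and name the leftmost base of a match. *Areg* held the cAMP response element at -61, a GC box at -52 and a TATA box at -31, with no overlap among them. The cAMP response element letters occur in 1.55% of 32851 mouse promoter windows of the same length, the TATA box letters in 12.37%, the GC box in 32.74%, CCAAT in 33.85% and the AP-1 letters in 6.75%. *Egfr* held a GC box at -9 on the opposite strand, *Erbb2* held CCAAT at -41, and none of the letters was found in the window of *Btc*. Of the 10 genes, 6 had a promoter entry, and *Erbb3*, *Ereg*, *Hbegf* and *Nrg1* did not.

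Among the receptors, *Egfr* and *Erbb2* were the abundant pair, and among the ligands *Hbegf* and *Areg* led. Levels per length are given in TPM, the abundance per length that the authors computed and scaled alike in every culture. *Egfr* was at 4.91, 7.04, 9.27 and 12.003 TPM in control cultures 3, 7, 14 and 21, and at 6.32, 11.7, 15.0 and 17.7 TPM in GDNF cultures 6, 12, 17 and 22. *Erbb2* was at 6.08, 9.33, 7.02 and 8.66 TPM in the controls and at 13.6, 16.1, 11.5 and 11.1 TPM after GDNF. The GDNF range of *Erbb2* lay above the control range, while the ranges of *Egfr* overlapped. *Erbb4* lay between 0.888 and 6.47 TPM and *Erbb3* between 0.683 and 4.29 TPM over the 8 cultures.

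Within each culture, *Egfr* exceeded *Erbb4* 3.77-fold on average and was higher in 7 of 8 cultures (exact sign-flip permutation test, two-sided, p = 0.0156, adjusted p = 0.0417 over 8 neighbouring pairs). *Erbb2* and *Egfr* were not separated, with a mean ratio of 1.03 and each gene higher in 4 cultures (exact permutation p = 0.852). When the TPM of both *Egfr* transcripts was summed, *Egfr* was 2.46-fold above *Erbb2* and higher in 8 of 8 cultures (exact permutation adjusted p = 0.0208), so the order of these receptors depended on how the transcripts were taken. Reads in exons that the 2 transcripts share may be counted for both, so the summed *Egfr* level may be too high. *Erbb4* and *Erbb3* were not separated (1.15-fold, higher in 6 of 8 cultures, exact permutation p = 0.359). The file lengths used for TPM were shorter than the annotated GENCODE exon lengths for *Erbb4* (4257 against 12037 bases), *Egfr* (5965 against 10208) and *Erbb3* (4020 against 6016), which limits comparisons of level between these receptors.

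*Hbegf* lies on chromosome 18 (36504927-36515805 in the same build). It was at 55.4, 43.5, 25.01 and 84.7 TPM in control cultures 3, 7, 14 and 21 and at 53.1, 64.0, 52.8 and 58.4 TPM in GDNF cultures 6, 12, 17 and 22. *Areg* was at 18.7, 18.7, 42.8 and 31.8 TPM in the controls and at 18.8, 16.8, 27.5 and 31.2 TPM after GDNF. *Hbegf* was the highest ligand in every culture except control culture 14, where *Areg* exceeded it. On average *Hbegf* was 2.13-fold above *Areg* (higher in 7 of 8 cultures, exact permutation adjusted p = 0.0417), and *Areg* was 3.07-fold above *Nrg1* (8 of 8 cultures, exact permutation adjusted p = 0.0417). The remaining ligands followed in the order *Nrg1*, *Ereg*, *Btc* and *Tgfa*, and none of these neighbours differed beyond the spread between cultures (1.32-fold, 1.31-fold and 1.29-fold; adjusted exact permutation p = 0.234, 0.446 and 0.446). With any culture left out, none of the 3 separated pairs passed (0 of 8 pairs), with smallest adjusted exact permutation p between 0.0625 and 0.0833. Leaving out a culture raises the smallest p that the sign-flip test allows, and even pairs at that smallest p did not pass after adjustment. Only 1 or 2 of the 8 pairs reached that smallest p with a culture left out, and the others fell short of it. The loss therefore mixes the limit of the test with pairs that fell short. It does not by itself measure how stable the levels are.

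**Figure D1:**
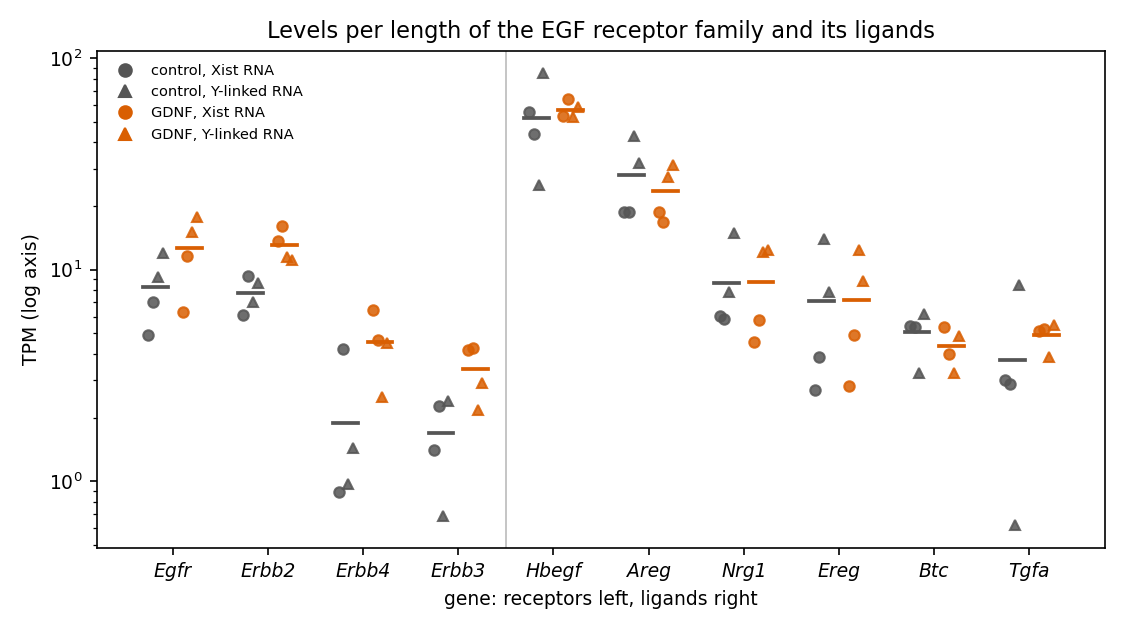
Level per length (TPM, log axis) of the 4 receptor genes and 6 ligand genes in each of 8 cultures; points are cultures, lines are group means, and shapes separate cultures with Xist RNA from those with Y-linked RNA. *Hbegf* lies between 25.01 and 84.7 TPM, above *Areg* in 7 of 8 cultures, and *Erbb3* and *Erbb4* have the lowest means among the receptors.

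The receptors summed to between 13.3 and 24.5 TPM in the control cultures and between 30.6 and 36.7 TPM after GDNF. The ligand sum was between 80.2 and 153.8 TPM in controls and between 89.7 and 121 TPM after GDNF, so that ligand RNA was 3.502 to 6.88 times receptor RNA in controls and 2.74 to 3.59 times after GDNF. These sums describe the cultures and were not tested. TPM has the same total in every culture, but the median gene lay higher after GDNF. The median log2 ratio was 0.40 over the 13698 genes that averaged 1 TPM or more. Levels in TPM thus carry a shift common to most genes. *Egfr* made up 20.7 to 51.6% of receptor TPM, *Erbb2* 30.6 to 45.8%, *Erbb4* 5.41 to 21.2% and *Erbb3* 3.804 to 13.7%. *Hbegf* made up 26.8 to 63.6% of ligand TPM and *Areg* 16.7 to 45.8%, and *Tgfa* reached at most 5.70%.

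**Figure D2:**
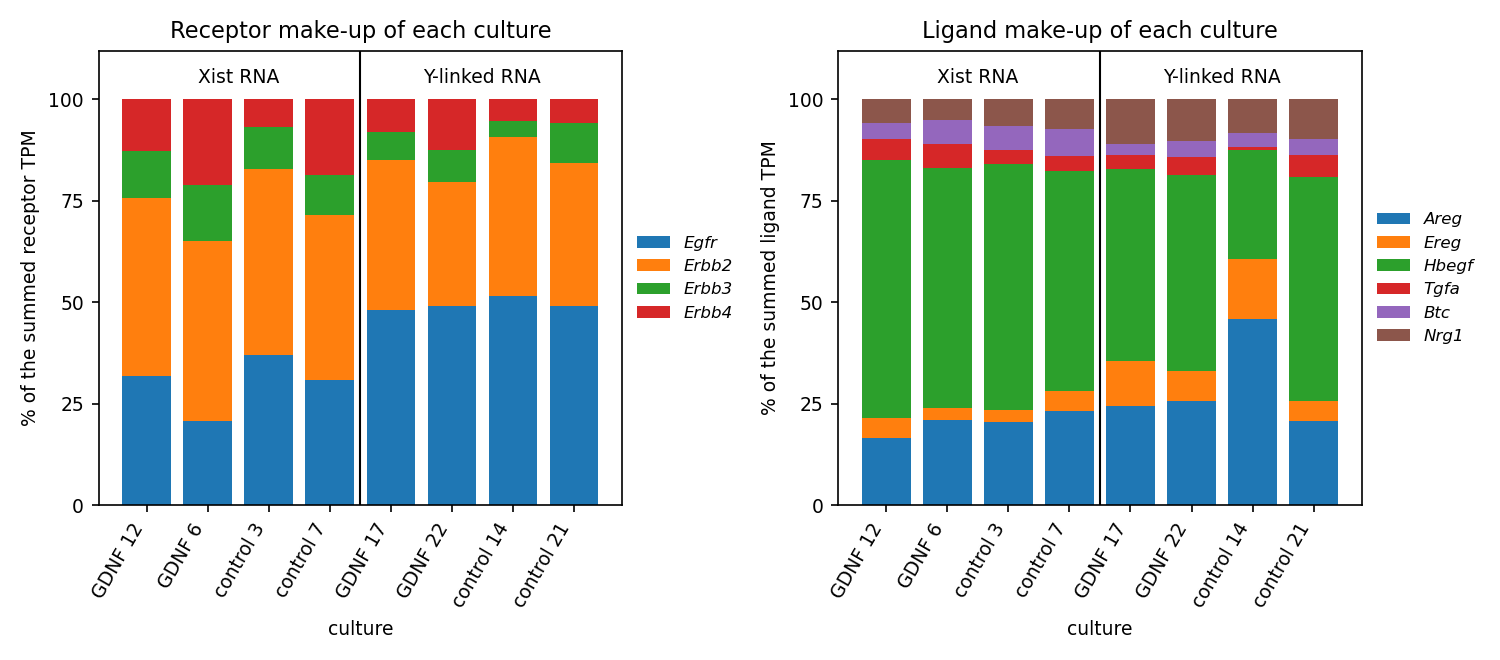
Share of each receptor in summed receptor TPM (left) and of each ligand in summed ligand TPM (right), in percent, 1 bar per culture, ordered by Xist or Y-linked RNA. The *Egfr* share is at most 37.0% in the 4 cultures with Xist RNA and at least 48.2% in the 4 with Y-linked RNA, and control culture 14 has the lowest *Hbegf* share, 26.8%.

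The 2 *Egfr* transcripts are the full-length NM_207655 (28 exons) and the shorter NM_007912 (16 exons), which ends early and encodes a form without the kinase part. Of the shorter transcript, 14 exons and 2197 bases also belong to the longer one, and 746 bases are its own. The count of the shorter transcript was 66.0 to 74.5% of that of the longer one in controls and 66.4 to 70.8% after GDNF, so the proportion overlapped between the groups. How reads in shared exons were counted is not given in the sources used here, so these values do not give the share of either form. *Nrg1*, a gene with many known isoforms, is represented by 1 listed transcript, NM_178591.

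The effect of the GDNF pulse was tested on counts, and no member passed the adjusted threshold. In the quasi-likelihood test of edgeR, adjusted after Benjamini-Hochberg over 16557 genes, 0 of 10 members were called, against 0% of all genes tested (smallest adjusted p of any gene 0.167). All 4 receptor estimates were above zero, with a median log2 fold change of 0.50, and 5 of 6 ligand estimates were below zero, with a median of -0.34, beside a median of 0.03 over all genes. These medians describe estimates that did not pass the test. At an unadjusted p of 0.05, 0 of 10 members were higher, against 9.25% of all genes, and 2 of 10 were lower (*Areg* and *Btc*), against 12.9%. DESeq2 gave an adjusted p to 5 of the 10 members and called 0 of them, against 14.7% of the 9170 genes to which it gave one. In bulk RNA, fewer cells of a type and less RNA per cell cannot be told apart.

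Values of single genes in each culture are given in CPM, counts scaled to library size after TMM normalization, which corrects each culture for composition. *Egfr* was at 41.8, 44.3, 60.02 and 68.8 CPM in control cultures 3, 7, 14 and 21 and at 34.1, 58.0, 76.7 and 84.8 CPM in GDNF cultures 6, 12, 17 and 22. The lowest culture of all was GDNF culture 6 and the highest GDNF culture 22, so the control values fell inside the GDNF range. The log2 fold change was 0.24 (SE 0.28, edgeR adjusted p = 0.634), and it was -0.09 when the trend over transcript length was removed per culture.

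*Erbb2* was at 26.1, 29.1, 21.8 and 25.04 CPM in the controls and at 36.4, 40.2, 28.7 and 26.1 CPM after GDNF. GDNF cultures 6 and 12 were above every control, and cultures 17 and 22 were within the control range. Its log2 fold change was 0.36 (SE 0.17, edgeR adjusted p = 0.243), and it was 0.13 when the trend over transcript length was removed per culture. In TPM, *Erbb2* was the one member whose groups did not overlap (7.78 ± 1.49 in controls and 13.05 ± 2.30 after GDNF, SD, n = 4; exact permutation test, two-sided, p = 0.0286, the smallest p that 4 against 4 allows), against 23.4% of all genes that lay without overlap higher after GDNF. In CPM no member was separated, against 13.2% of all genes. In TPM with the common shift removed, a setting chosen after seeing the data, none passed. Each member had the same exact permutation p there as in CPM, so this setting is not a separate check.

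*Erbb4* was at 3.24, 11.2, 2.57 and 3.55 CPM in control cultures 3, 7, 14 and 21 and at 14.7, 9.93, 5.33 and 9.05 CPM in GDNF cultures 6, 12, 17 and 22. Control culture 7 stood among the GDNF cultures, and the other 3 controls were below all of them. The log2 fold change was 0.92 (SE 0.49, edgeR adjusted p = 0.286). Without control culture 7 it was 1.65 (edgeR adjusted p = 0.142), the largest shift that any left-out culture gave among the receptors.

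*Erbb3* was at 4.83, 5.70, 1.71 and 5.58 CPM in the controls and at 8.99, 8.63, 4.39 and 5.51 CPM after GDNF. Cultures 6 and 12 were again above all controls, and cultures 17 and 22 were not. Its log2 fold change was 0.63 (SE 0.39, edgeR adjusted p = 0.357).

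**Figure D3:**
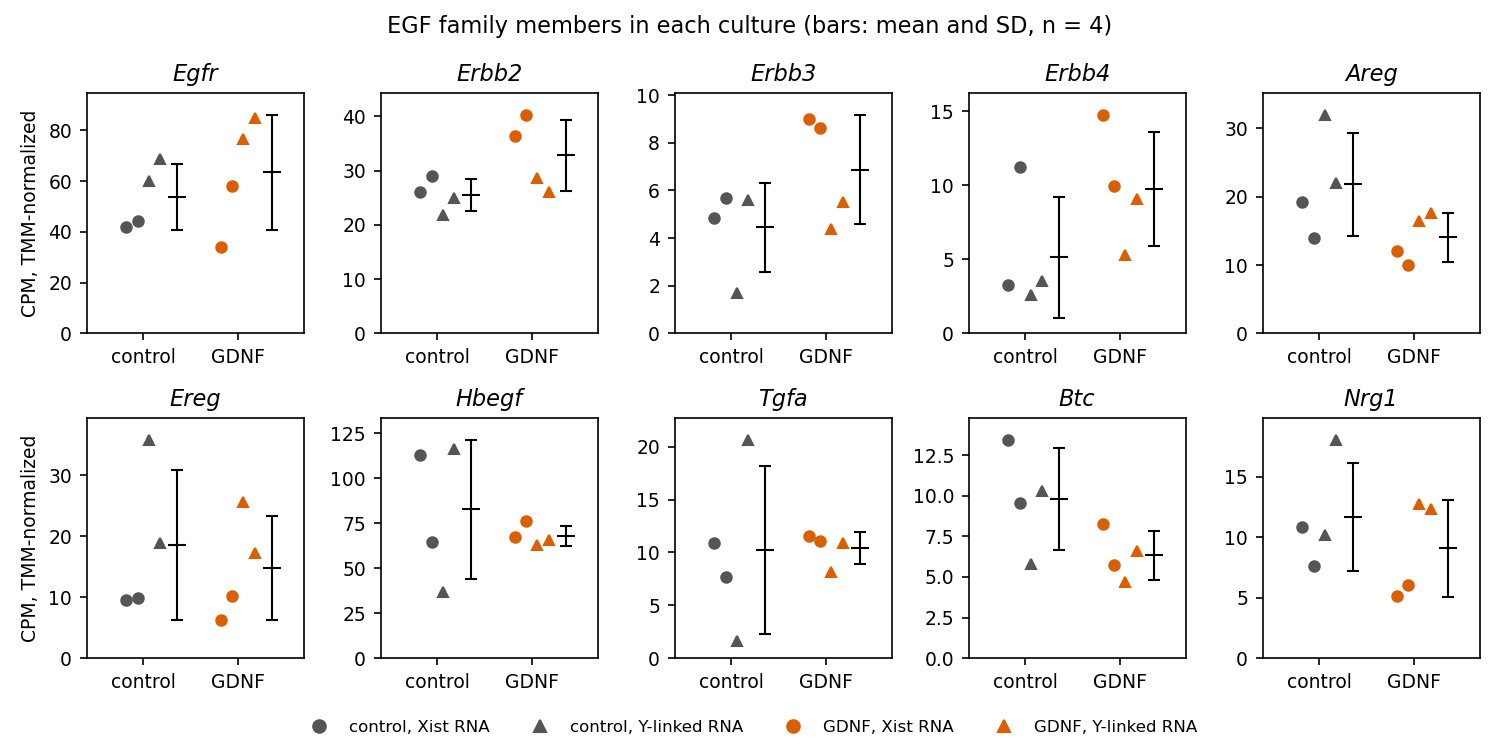
Normalized level (CPM with TMM normalization, linear axis from 0) of each member in 4 control and 4 GDNF cultures; points are cultures, shapes separate Xist from Y-linked RNA, and bars give the mean and SD. The groups overlap for all 10 genes, and *Hbegf* spreads from 37.0 to 116 CPM in controls but only from 62.8 to 76.1 CPM after GDNF.

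Among the ligands, *Areg* was at 19.3, 13.98, 31.9 and 22.1 CPM in control cultures 3, 7, 14 and 21 and at 12.1, 10.1, 16.5 and 17.7 CPM in GDNF cultures 6, 12, 17 and 22. GDNF cultures 6 and 12 were below every control, and control culture 7 was below GDNF cultures 17 and 22. The log2 fold change was -0.63 (SE 0.27, edgeR unadjusted p = 0.0437, adjusted p = 0.216).

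*Btc* was at 13.4, 9.57, 5.80 and 10.3 CPM in the controls and at 8.26, 5.73, 4.69 and 6.60 CPM after GDNF. All GDNF cultures were below 3 of the controls, and control culture 14 was inside the GDNF range. Its log2 fold change was -0.63 (SE 0.28, edgeR unadjusted p = 0.0497, adjusted p = 0.225).

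*Hbegf* was at 113, 64.5, 37.0 and 116 CPM in the controls and at 67.5, 76.1, 62.8 and 65.6 CPM after GDNF. The GDNF cultures lay close together inside the wide control range. The SD was 38.6 CPM in controls and 5.74 CPM after GDNF, and the log2 fold change was -0.28 (SE 0.31, edgeR adjusted p = 0.613). The difference in spread was not tested.

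*Ereg* was at 9.58, 9.95, 35.8 and 18.8 CPM in control cultures 3, 7, 14 and 21 and at 6.21, 10.1, 25.6 and 17.3 CPM in GDNF cultures 6, 12, 17 and 22. In each group 2 cultures were high and 2 low, and the groups overlapped. The log2 fold change of *Ereg* was -0.32 (SE 0.51, edgeR adjusted p = 0.732), and it was 0.21 without control culture 14.

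*Nrg1* was at 10.9, 7.65, 10.2 and 18.1 CPM in the controls and at 5.15, 6.08, 12.8 and 12.3 CPM after GDNF, with a log2 fold change of -0.37 (SE 0.36, edgeR adjusted p = 0.569). *Tgfa* was at 10.9, 7.65, 1.63 and 20.6 CPM in the controls and at 11.6, 11.0, 8.17 and 10.9 CPM after GDNF, with a log2 fold change of 0.03 (SE 0.56, edgeR adjusted p = 0.981). *Nrg1* and *Tgfa* both peaked in control culture 21. In CPM, control culture 14 held the lowest level of *Tgfa*, *Erbb2*, *Erbb3*, *Erbb4* and *Hbegf* and the highest of *Areg* and *Ereg*.

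**Figure D4:**
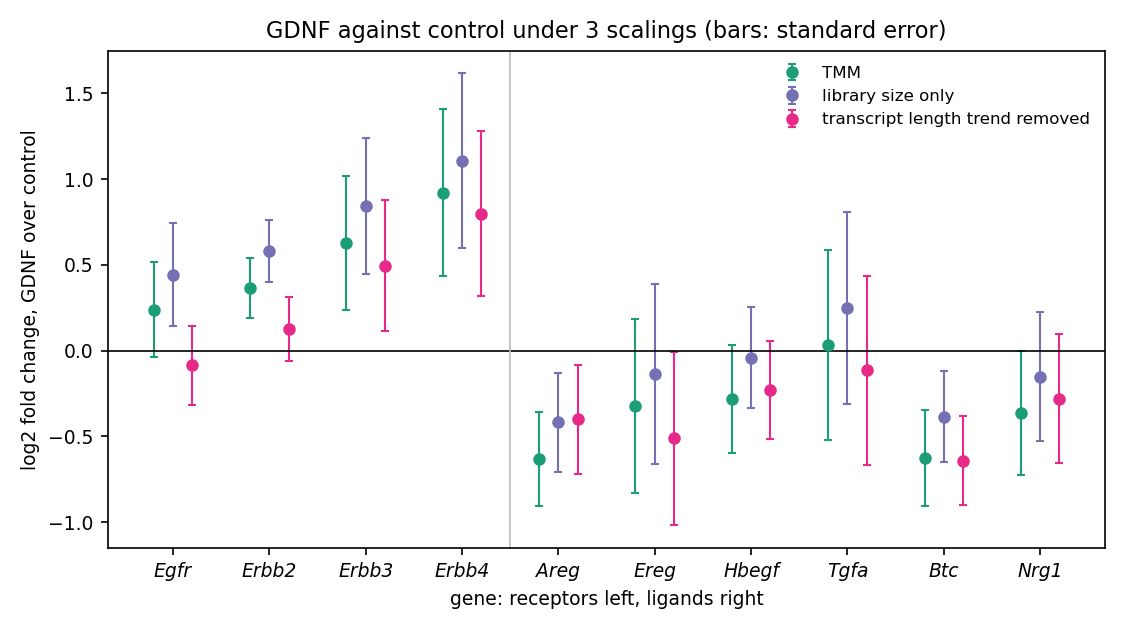
Log2 fold change of each member between GDNF and control cultures by edgeR under 3 scalings, TMM, library size only and TMM with the trend over transcript length removed; bars are standard errors. The estimate of *Erbb4* is 0.92, 1.11 and 0.80, that of *Btc* -0.63, -0.39 and -0.64, and that of *Egfr* 0.24, 0.44 and -0.09. The estimate of *Erbb2* is 0.36, 0.58 and 0.13.

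The size of these estimates depended on the scaling. The TMM factors were 0.790 to 0.982 in controls and 1.07 to 1.11 after GDNF, and with library size only the median log2 fold change of all genes was 0.25, with *Areg* at -0.42, *Btc* at -0.39 and *Erbb2* at 0.58. Under TMM, library size only and the removal of the length trend, *Erbb2*, *Erbb3* and *Erbb4* stayed above zero. *Areg*, *Ereg*, *Hbegf*, *Btc* and *Nrg1* stayed below zero under each of these. *Egfr* and *Tgfa* (-0.11) turned below zero with the length trend removed. *Erbb2* was then at 0.13 (SE 0.19), against 0.36 with TMM. Across genes at an unadjusted p of 0.05, 41.8% of calls were higher after GDNF with TMM and 79.5% with library size only. Total counts per culture were between 72991721 and 97490625.

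The cultures also fell into 2 kinds that the labels do not name. Control cultures 3 and 7 and the GDNF cultures numbered 6 and 12 held *Xist* RNA (12.5 TPM or above), and the sum of 4 Y-linked genes was 116 TPM or above in cultures 14, 21, 17 and 22, with 1.502 TPM of them also in control culture 3 and 6.46 TPM in GDNF culture 6. Each treatment group held 2 cultures of each kind. The kinds also follow the culture numbers, which run from 3 to 12 with *Xist* RNA and from 14 to 22 with Y-linked RNA. Sex, animal, preparation and order of numbering cannot be told apart by this division. The comparison of the kinds was chosen after the data had been seen.

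*Ereg* had the largest estimate of any member in this division. It was at 6.21 to 10.1 CPM in the 4 cultures with *Xist* RNA and at 17.3 to 35.8 CPM in the 4 with Y-linked RNA, with no overlap and a mean 2.72-fold higher in the latter. In edgeR with the treatment as a term, the log2 difference (Xist minus Y) was -1.44 (SE 0.25, adjusted p = 0.0524), just outside the threshold, and DESeq2 gave an adjusted p of 1.11e-05. *Egfr* was at 34.1 to 58.0 CPM with *Xist* RNA and at 60.02 to 84.8 CPM with Y-linked RNA, also without overlap, with a log2 difference of -0.70 (SE 0.18, edgeR adjusted p = 0.165). Lower levels without overlap in CPM in cultures with *Xist* RNA were thus found for 2 of 10 members, against 2.32% of all genes. In TPM this held for 3 of 10, *Areg*, *Ereg* and *Nrg1*, against 3.39%.

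*Nrg1* differed by -0.88 (SE 0.24, edgeR adjusted p = 0.185) and *Areg* by -0.66 (SE 0.18, edgeR adjusted p = 0.191) on the log2 scale, both lower with *Xist* RNA. The other 3 receptors had estimates of the opposite sign, 1.01 for *Erbb4* (SE 0.38), 0.68 for *Erbb3* (SE 0.33) and 0.36 for *Erbb2* (SE 0.14), with edgeR adjusted p of 0.322, 0.438 and 0.336. *Btc* (0.41), *Hbegf* (0.19) and *Tgfa* (-0.01) had edgeR adjusted p of 0.531 or more. By edgeR's adjusted p, 0 of 10 members were called, against 0.411% of all genes. At an unadjusted p of 0.05 there were 6 of 10, against 12.4%, and DESeq2 called 4 of 10 (*Egfr*, *Areg*, *Ereg* and *Nrg1*, all lower with *Xist* RNA), against 3.45%.

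**Figure D5:**
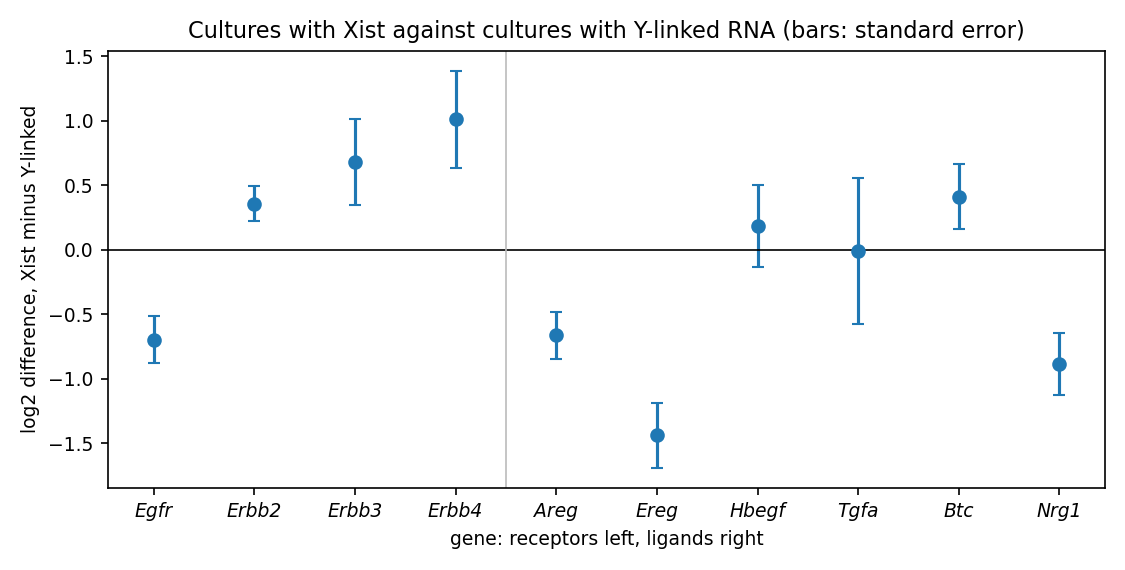
Log2 difference of each member between 4 cultures with Xist RNA and 4 with Y-linked RNA, from edgeR with the treatment as a term; bars are standard errors. *Ereg* is lowest at -1.44, *Egfr*, *Nrg1* and *Areg* lie between -0.88 and -0.66, and *Erbb4* is highest at 1.01.

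In the same division, all 8 stromal markers had lower estimates with *Xist* RNA, with a median log2 difference of -0.80, and *Dcn*, a matrix proteoglycan of fibroblasts, was at -3.21 (edgeR adjusted p = 0.043). Their summed level was 203 to 1162 TPM in cultures with *Xist* RNA and 654 to 1674 TPM in those with Y-linked RNA. Of 8 tubule epithelium markers, 7 had higher estimates with *Xist* RNA (median 0.43), and their sums overlapped widely (1153 to 2423 against 480 to 3720 TPM). Podocyte markers had lower estimates in 5 of 5 (median -0.86, 2 at an unadjusted p of 0.05, 0 called by edgeR's adjusted p) and endothelial markers in 4 of 5 tested (median -0.80, 2 at the unadjusted p, 0 called). The part of these cell types in the difference of *Ereg* and *Egfr* was not tested.

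With the kind of culture as a term, the GDNF estimates of the members stayed close to those without it, 0.997 for *Erbb4* (edgeR adjusted p = 0.164), 0.35 for *Erbb2* (0.173), -0.62 for *Areg* (0.142) and -0.61 for *Btc* (0.185), and 0 of 10 were called. Within both kinds, the GDNF mean lay above the control mean for all 4 receptors and below it for *Areg*, *Ereg*, *Hbegf*, *Btc* and *Nrg1*. *Tgfa* was 2.04 CPM higher after GDNF in cultures with *Xist* RNA and differed by -1.58 CPM in those with Y-linked RNA. A difference of the GDNF effect between the kinds was called for 0 of 10 members, and each had an edgeR adjusted p of 1 for the interaction (unadjusted p 0.284 or more).

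The labelled tissue was checked against markers. All 8 tubule epithelium markers were above 1 TPM on average, with *Krt18* and *Krt8*, keratins of simple epithelium, at 564 and 419 TPM. Their summed level ranged from 480 to 3720 TPM in controls and from 1092 to 1578 TPM after GDNF, with a median log2 fold change of -0.41, and *Krt8* was lower after GDNF at an unadjusted edgeR p of 0.0437 (log2 fold change -1.45, adjusted p = 0.216). Stromal markers summed to 203 to 1674 TPM in controls and 253 to 1339 TPM after GDNF. Of 6 endothelial markers, *Emcn* and *Flt1* averaged 18.2 and 14.9 TPM, and *Pecam1*, *Cdh5*, *Kdr* and *Tek* were each under 1 TPM. *Flt1*, a VEGF receptor gene, had a log2 fold change of 0.81 after GDNF (DESeq2 adjusted p = 0.0426, edgeR adjusted p = 0.167), and the endothelial markers summed to 14.1 to 40.2 TPM in controls and 28.3 to 55.8 TPM after GDNF. The part of these other cells in the estimates of the members was not tested. *Adgre1*, *Cd3e* and *Sox10*, which mark macrophages, T cells and Schwann cells, were at 0 in every culture.

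Other ligands of the family were less abundant, apart from neuregulin 4. *Nrg4*, a ligand of Erbb4, was at 7.24 to 10.1 TPM in controls and 8.10 to 9.51 TPM after GDNF, beside 4.57 to 14.8 TPM of *Nrg1* over all cultures, and its log2 fold change in CPM was -0.36 (SE 0.19, edgeR adjusted p = 0.293). *Egf* RNA was at 0.217 to 0.761 TPM in controls and 0.674 to 1.78 TPM after GDNF, with overlapping groups and a log2 fold change of 0.66 (SE 0.40, edgeR adjusted p = 0.355). *Nrg2*, *Nrg3* and *Epgn* were at 0.364 TPM or less in every culture, and *Epgn* did not pass the filter on low counts.

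Genes around the receptors were read from 4 further lists, of ligand release, signal transduction, inhibition and the response to ERK. Together with the other ligands they hold 70 genes, of which 69 were tested, and 0 passed edgeR's adjusted p. At an unadjusted p of 0.05, 8 were higher after GDNF and 6 lower, beside 9.25% and 12.9% of all genes, and DESeq2 called 3 in each direction, beside 14.7% of all genes to which it gave an adjusted p. Of the inhibitors and feedback genes, 4 of 18 were higher and 0 lower at that unadjusted p, with a median log2 fold change of 0.28. *Lrig3* went from 14.9 ± 1.13 to 25.6 ± 4.19 CPM (SD, n = 4), a log2 fold change of 0.78, and *Lrig2* from 20.9 ± 4.03 to 31.7 ± 4.47 CPM, a log2 fold change of 0.60. Both encode leucine-rich membrane proteins of the LRIG family, whose member Lrig1 restrains ErbB receptors, and both were called by DESeq2 (adjusted p = 0.0136 and 0.0481) and not by edgeR (adjusted p = 0.167 for each). *Cbl*, a ubiquitin ligase of activated Egfr, had a log2 fold change of 0.50 (edgeR adjusted p = 0.177). *Lrig3*, *Lrig2* and *Cbl* were at 0.63, 0.25 and 0.26 with the length trend removed.

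Among 9 genes of ligand release, 1 was higher and 1 lower at the unadjusted p. *Cnih1*, which helps ligand precursors leave the endoplasmic reticulum, went from 223 ± 54.3 to 140 ± 8.40 CPM (log2 fold change -0.67, DESeq2 adjusted p = 0.0214, edgeR adjusted p = 0.167). The inactive rhomboids *Rhbdf1* and *Rhbdf2*, which carry the sheddase Adam17 to the surface, had log2 fold changes of 0.45 and 0.31 (edgeR adjusted p = 0.167 and 0.229). With the length trend removed, *Cnih1*, *Rhbdf1* and *Rhbdf2* were at -0.46, 0.41 and 0.20.

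Among 24 adaptors and transducers, 3 were higher and 3 lower at the unadjusted p, near the shares of all genes (9.25% and 12.9%). *Gab1*, a docking protein downstream of Egfr, went from 24.2 ± 2.31 to 38.0 ± 5.70 CPM, while *Map2k1* (MEK1) went from 100 ± 15.8 to 64.5 ± 9.43 CPM and *Hras* from 213 ± 57.8 to 140 ± 20.96 CPM. All 3 were called by DESeq2 (adjusted p = 0.0223, 0.0214 and 0.0363) and had an edgeR adjusted p of 0.167. Their log2 fold changes were 0.65, -0.64 and -0.61, and 0.41, -0.61 and -0.56 with the length trend removed. Of 14 ERK response genes, 2 were lower at the unadjusted p, also near the share of all genes, the cyclin gene *Ccnd1* (log2 fold change -1.31, edgeR adjusted p = 0.214) and the AP-1 subunit *Fosl1* (-0.80, edgeR adjusted p = 0.212), and *Etv4*, an ETS factor, had an estimate of 0.30 (edgeR adjusted p = 0.274). *Ccnd1* varied widely in the controls, with 201 ± 162 CPM against 81.1 ± 17.02 CPM after GDNF.

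The genes most like *Egfr* across the 8 cultures, by Pearson's r of log2 CPM over 11460 genes with a mean of at least 5 CPM, were *Peak1* (0.97), *Pdxdc1* (0.97), *Ammecr1* (0.97), *Cdc27* (0.96) and *Mir6935* (0.96). Those most like *Hbegf* were *Cttnbp2nl* (0.99), *Epn3* (0.99), *Wnt7b* (0.99), *Zc3h10* (0.99) and *Prss22* (0.98). The values are descriptions across 8 cultures that share the culture's composition and scaling, and they were not tested.

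Exons of 3 members overlap a gene on the other strand in the annotation, *Erbb2* with *Mien1* by 9 bases, *Ereg* with *Gm19610* by 141 and *Tgfa* with *Gm43917* by 118. The strand setting of the counting is not given in the sources used here, so reads from these overlaps cannot be told apart.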

How the data were processed

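RNA of 8 cultures was made into SMART-Seq v4 libraries, and the 75 bp paired-end reads were sequenced on 2 lanes. The lane of each culture is not given in the sources used here. STAR, run by the authors on BasePair, placed the reads on mm10, and the submitters' processing notes also name featureCounts and DESeq2. They deposited, per RefSeq transcript, whole-number counts, FPKM and TPM. FPKM gave only transcript lengths. TPM was scaled by the authors over all transcripts. The rule for reads shared by transcripts is not given in the sources used here. There were 3801 genes with several transcripts whose first transcript averaged 100 counts or more. In 85.3% of them the second transcript had at least 90% of the mean count of the first. In 430 genes, transcripts that averaged 100 counts or more carried identical counts in all 8 cultures. Near-equal counts were thus common, and sums over transcripts may hold a read more than once.

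Counts were summed per symbol and tested with edgeR 4.0.16 (R 4.3.3, filterByExpr, TMM, quasi-likelihood test, Benjamini-Hochberg over 16557 genes, threshold 0.05). DESeq2 1.42.0, limma 3.58.1 (voom), other scalings and filters, a trend over transcript length (5 degrees of freedom) and leaving out each culture were alternatives. The edgeR, DESeq2 and limma steps were tested on simulated data. TPM was compared by exact permutation over 70 assignments, and neighbouring levels by sign flips of log2(TPM + 0.01) over 256 patterns (with TPM summed over transcripts as an alternative), in Python 3.11.15 with NumPy 2.4.6, pandas 2.3.3 and SciPy 1.17.1 (figures by matplotlib 3.10.9). Counts per member were 153 or more, so counting error was small beside the spread between cultures.

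The members, lists and tests were chosen with earlier results of these data known. The genes named are all members and other family ligands, the 3 of each pathway list with the smallest edgeR p among those with a mean of at least 1 CPM, any passing an adjusted p in edgeR or DESeq2, and the 5 genes most like the leading receptor and ligand. Markers and promoter sequences are named beside their use.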

Additional observations from a re-analysis of the deposited data

Results flagged for a closer look

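*Erbb4* in control culture 7 stood apart from the other controls on both scales. It was at 4.24 TPM there and between 0.888 and 1.44 TPM in the other 3 controls, and at 11.2 CPM there and between 2.57 and 3.55 CPM in the others. The gap to the nearest control, as a part of the whole range of the group, was 0.835 in TPM and 0.888 in CPM. Of 40 groups of 4 values examined, 2 stood apart in this way, and chance gives about 2, so the value is given without weight. The cause was not tested.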

How the results depend on the processing

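No member was called between GDNF and control cultures by any tool, scaling, filter or left-out culture (0 of 10). DESeq2 gave no adjusted p to *Erbb3*, *Erbb4*, *Tgfa*, *Btc* and *Nrg1*, so it could not call these. Over all genes, DESeq2 called 1346 and edgeR 0. The count of pathway genes at an unadjusted p of 0.05 was 14 (8 higher after GDNF, 6 lower). It was 25 with library size only (22 higher, 3 lower) and 14 with the length trend removed (5 higher, 9 lower), so the direction depended on the scaling. Over all genes, removing the length trend gave 931 higher and 1990 lower. The count lay between 8 and 16 with each culture left out (8 without GDNF culture 22, 9 without control culture 3 or GDNF culture 17). Removing the length trend turned *Egfr* to -0.086 and *Tgfa* to -0.11 (log2 fold change), and *Erbb2* was then at 0.13. With each culture left out, *Ereg* lay between -0.73 and 0.21 (0.21 without control culture 14) and *Tgfa* between -0.32 and 0.60. The count of members past the exact permutation test in TPM was 1. It was 0 in CPM with TMM. It was also 0 with the shift between the groups removed (chosen after seeing the data), which gave each member the same p as CPM. With each culture left out it was 1 to 2 (2, with *Tgfa*, without control culture 21, and 2, with *Erbb3*, without GDNF culture 17). Neighbouring levels that differed went from 3 to 0 with any culture left out, where fewer cultures raise the smallest p that the test allows. Only 1 or 2 pairs reached that smallest p there. The count of differing neighbours went to 4 with TPM summed over transcripts, where *Egfr* was separated from *Erbb2* and shared reads may be counted more than once. Permutation within the kinds of culture cannot give a p under 0.0556, so no count is given for it. Between the kinds of culture, a comparison chosen after seeing the data, DESeq2 called 4 members and edgeR 0. Removing the length trend moved *Tgfa* to 0.088, and with each culture left out *Hbegf* lay between -0.066 and 0.57 and *Tgfa* between -0.34 and 1.02 (log2 difference). No paired analysis was possible because the labels do not say which cultures, if any, share an animal. The causes of these changes were not tested. With 4 cultures a group and SEs of 0.17 to 0.56 on the log2 scale, no estimated change of a member after GDNF passed the adjusted threshold.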
